A study of Homo sapiens with 64 samples.

Results

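The data described here are RNA sequencing counts of cycling cells from HT55 and RKO, the pair of colorectal cancer cell lines whose profiles lay farthest apart in the series. They comprise 8 of the 64 samples, 4 of HT55 and 4 of RKO, each sorted as the non-label-retaining (non-LRC) population. The pair was chosen by its measured expression, since the profiles of HT55 and RKO were the least alike among 6 lines. It is therefore given as a description, without p-values. Tests are given only for SW948 and SW48, a second pair of lines that shares no library with the first.

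In the study, 6 lines were grown as nonadherent spheroids with bFGF and EGF after labeling with CFSE, a dye that each dividing cell passes on in smaller amounts to its daughters. On day 6, dye-bright cells (LRCs) and the bulk of cells that had diluted the dye (non-LRCs) were sorted from each line, with 4 replicates of each, which gave 48 sorted samples. The other 16 samples were DLD1 controls and were not used here. HT55 and SW948 belong to colon cancer subtype CCS1, RKO and SW48 to CCS2, and DLD1 and HCT15 to CCS3. The samples of a comparison thus shared the culture, the dye and the sort, and the groups differed in the cell line. Each group was 1 established line, so differences between HT55 and RKO cannot be told apart from differences between any 2 individual tumors, and the 4 replicates measure only the spread between cultures of the same line.

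HT55 libraries held 16012930 to 16226953 reads counted on genes, and RKO libraries 13621920 to 17087941. Between 19302 and 20023 genes had at least 1 read in an HT55 library and between 17945 and 18297 in an RKO library. Reads from the mitochondrial genome made up 8.15% to 11.2% of counted reads in HT55 and 4.47% to 6.57% in RKO, so the lines did not overlap in this share, and its part in the results was not tested. HT55 replicate 2 stood apart from the other HT55 libraries. Of the 10295 genes that averaged 5 or more CPM (counts in 1000000 reads) in HT55, 154 were at least 2-fold above and 112 at least 2-fold below the mean of the other 3 libraries, compared with 4 to 23 genes in either direction for replicates 1, 3 and 4. Leaving out replicate 2 of both lines changed the counts of called genes from 3719 to 3745 and from 3008 to 3082, and no count of any gene list in this comparison moved by more than 1. In the second pair SW48 replicate 2 stood apart, with 182 of 10237 genes at least 2-fold above and 134 at least 2-fold below the rest, and without replicate 2 the counts there changed from 2836 to 2973 and from 2522 to 2560. Of 19 markers of other cell types with a row in the counts, 16 averaged under 1 CPM in HT55 and 18 in RKO, and 9 had no read in any library of a line, among them the leukocyte marker PTPRC and the endothelial marker CDH5 in both. The highest of them was CD68, a lysosomal protein often used as a macrophage marker, with 14.7, 27.5, 16.4 and 16.3 CPM in HT55 and 964, 1062, 1082 and 1108 CPM in RKO. Without CD68, the summed level of the marker list lay between 3.49 and 3.67 CPM in HT55 and between 0.731 and 1.99 CPM in RKO.

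The colonic epithelium renews itself from stem cells at the crypt base that depend on Wnt signals. As their progeny move up the crypt they leave the cell cycle and become absorptive colonocytes or mucus-producing goblet cells, under transcription factors such as CDX2 and the HNF4 family. The cells stay joined by E-cadherin and by tight junctions. Colorectal cancers keep this program to different degrees, and some lose it and take on features of mesenchymal cells.

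Levels are given as CPM on one scale for the 48 sorted samples, with library sizes normalized by the TMM method. In all, 13840 genes reached 10 counts in 4 or more of the 8 libraries and were tested, and 6727 (48.6%) were called different. A call needed an adjusted p-value under 0.05 in edgeR's quasi-likelihood test and at least a 2-fold change. Of these, 3719 (26.9%) were higher in HT55 and 3008 (21.7%) were higher in RKO. Just inside the 2-fold limit lay IRAK2 and DEPDC1B, with log2 fold changes of 1.0004 ± 0.13 (SE) and -1.0002 ± 0.12, and just outside it WHAMM at 0.9999 ± 0.08 and KNTC1 at 0.9998 ± 0.10. The median absolute log2 fold change was 0.96, against a median standard deviation between replicates of 0.18 log2 units in HT55 and 0.13 in RKO. In 10752 genes (77.7%) the 4 HT55 values and the 4 RKO values did not overlap. At least a 32-fold difference was seen for 1288 genes higher in HT55 and 548 higher in RKO. No read was found in any RKO library for 427 of the genes called higher in HT55, and none in any HT55 library for 119 of those called higher in RKO. The count minimum admits genes through either line, so such genes had to differ once tested. The same holds in SW948 and SW48, where the adjusted p-value of a gene near 0 in one line adds no support. In bulk libraries, fewer cells of a type and less RNA per cell cannot be told apart. Across 15779 genes, the mean profiles of HT55 and RKO correlated with Pearson's r = 0.715, the lowest of the 15 pairs of lines. Next came SW948 with RKO at 0.759, and DLD1 with HCT15 had the highest value at 0.950. Single HT55 libraries correlated with each other at 0.983 to 0.993 and RKO libraries at 0.993 to 0.995. These correlations are across genes, which are not independent replicates.

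**Figure D1:**
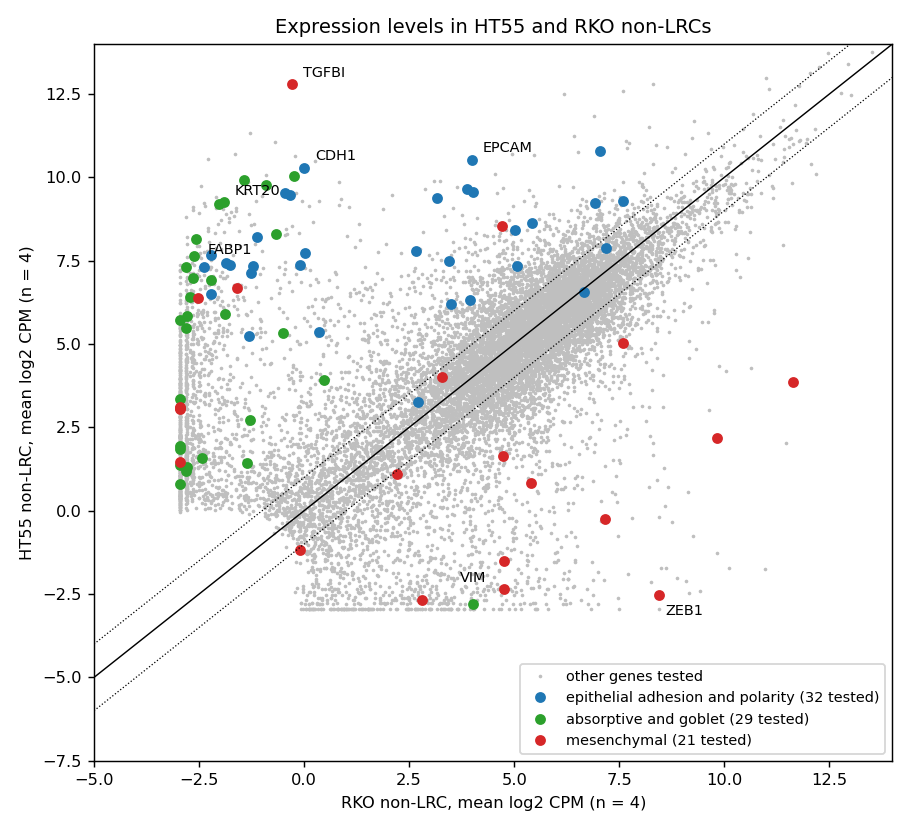
Mean log2 CPM of each of the 13840 genes tested in RKO non-LRCs (x axis) and HT55 non-LRCs (y axis), 4 libraries each; the solid line marks equal levels and the dotted lines a 2-fold difference. Of the epithelial adhesion genes (blue), 29 of 32 were called higher in HT55, absorptive and goblet genes (green) lie mostly at the left, where RKO had few reads, and mesenchymal genes (red) fall on both sides.

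The genes with the largest differences were on in one line and off in the other. TRIM29, a tripartite-motif protein of epithelia, had 149.6, 157, 194 and 167 CPM in HT55 and no read in RKO, at least 3291-fold higher when RKO is set to a floor of 3 reads over its 4 libraries. The same floor gave at least 2992-fold for PPARG, a nuclear receptor of lipid metabolism, at least 2958-fold for the secreted ligand SHH, at least 2953-fold for the guanine nucleotide exchange factor VAV3 and at least 2558-fold for DIO3, which inactivates thyroid hormone. All 4 had between 104 and 219 CPM in every HT55 library. GUCY2C, the intestinal receptor for guanylin, averaged 445 CPM in HT55 and had 1 read in RKO in all. The membrane peptidase MME, the keratin KRT23 and PHGR1 averaged 564, 526 and 297 CPM in HT55, with 2, 2 and 1 reads in RKO over all 4 libraries.

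In the other direction, IFI16, a sensor of DNA in the nucleus, had 329.7, 385, 326 and 355 CPM in RKO and no read in HT55, at least 6475-fold higher in RKO. OXCT1, the enzyme that uses ketone bodies, was at least 3327-fold higher in RKO (179 ± 9.34 CPM, SD, n = 4) and also had no read in HT55. SW948, SW48, DLD1 and HCT15 averaged 9.87 to 42.9 CPM of OXCT1, and only HT55 lay at 0. For IFI16 it was RKO that differed from the rest, since none of the other 5 lines averaged above 0.502 CPM. The secreted glycoprotein STC1 had 2116, 2067, 1841 and 1986 CPM in RKO and at most 0.587 CPM in HT55, a log2 fold change of -12.96 ± 0.29. RGS4, a regulator of G protein signaling, and MAP1LC3C, an autophagy protein, averaged 686 and 1113 CPM in RKO and 0.0716 and 0.216 CPM in HT55. GFPT2, of the hexosamine pathway, averaged 572 CPM in RKO with 3 reads in HT55. CIBAR1, EVC, B3GALNT1 and ZNF883 had no read in HT55 and averaged 55.8, 46.6, 46.1 and 45.3 CPM in RKO. ZNF883 had no read in the non-LRCs of any of the other 5 lines.

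Transcription factors of the intestine were higher in HT55 for 14 of the 17 tested and lower for 2 (all genes, 26.9% and 21.7%). Of the 17, 7 reached 10 counts in every library of HT55 but not of RKO and 2 the reverse. CDX2, the master regulator of intestinal identity, was present in both lines, with 266, 334, 313 and 295 CPM in HT55 and 19.7, 21.8, 18.5 and 20.8 CPM in RKO. The 4 RKO values all lay below those of HT55 (log2 fold change 3.95 ± 0.10). Its relative CDX1 averaged 60.3 CPM in HT55 and 0.0697 CPM in RKO. HNF4A, a nuclear receptor that maintains enterocyte genes, had 187, 196, 182 and 203 CPM in HT55 and 0, 0, 0.0764 and 0.182 CPM in RKO, that is 4 reads in all of RKO. HNF4G, the second gene of that family, did not pass the 2-fold limit. It had 32.1, 27.7, 29.9 and 25.5 CPM in HT55 and 26.8, 28.3, 20.2 and 24.6 CPM in RKO, and the ranges overlapped. The pioneer factors FOXA2 and FOXA3 averaged 56.7 and 34.7 CPM in HT55, each with 1 read in RKO, whereas FOXA1 averaged 0.180 and 9.51 CPM in HT55 and RKO and was thus the member of this family found in RKO. GATA4, a factor of the proximal gut, had 21.5, 23.3, 23.8 and 21.0 CPM in RKO and no read in HT55 (at least 415-fold higher in RKO), while GATA6, which is expressed along the colon, averaged 38.9 and 3.22 CPM. The members named next were all higher in HT55. KLF5 averaged 533 and 3.55 CPM, KLF4 123 and 3.58 CPM, ELF3 256 and 0.178 CPM, VDR 106 and 7.92 CPM and SOX9 464 and 9.96 CPM in HT55 and RKO, and ISX averaged 27.7 CPM in HT55 with no read in RKO.

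Not all of these factors separated SW948 from SW48. Of the 16 tested in that pair, 11 were called higher in SW948 and 2 lower (all genes tested, 20.2% and 17.9%). CDX2 averaged 291 ± 22.8 CPM in SW948 and 36.2 ± 8.64 CPM in SW48 (SD, n = 4 each; log2 fold change 3.01 ± 0.15, adjusted p = 3.8e-09). CDX1 and FOXA2 were near 0 in both CCS2 lines, with 81.4 and 0.0618 CPM and 82.1 and 0.115 CPM in SW948 and SW48. Both genes passed the count minimum through SW948 alone, so their direction in this pair was fixed once they were tested. CDX1 was near 0 in DLD1 and HCT15 as well, and FOXA2 in HCT15. HNF4A was higher in SW948 too, but SW48 kept 62.8 CPM (log2 fold change 1.65 ± 0.09, adjusted p = 6.7e-09). KLF5 and SOX9, which were both low in RKO, averaged 625 and 256 CPM in SW48 and did not pass the 2-fold limit there, with log2 fold changes of -0.65 ± 0.14 and 0.33 ± 0.09. KLF4, a factor of differentiated cells, went the other way, with 47.3 and 169 CPM in SW948 and SW48 (log2 fold change -1.84 ± 0.14, adjusted p = 1.6e-07).

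Most absorptive genes tested were almost absent from RKO. Of 30 listed, 11 lay below the count minimum and so had few reads in HT55 as well. Of the 19 tested, 18 were called higher in HT55 and 1 lower (all genes, 26.9% and 21.7%). All 18 reached 10 counts in every library of HT55 but not of RKO, so the filter admitted them through HT55. The one in the other direction was CA2, a carbonic anhydrase of colonocytes, with 1 read in HT55 and 15.6, 14.5, 15.9 and 18.0 CPM in RKO (named after its value was seen). KRT20, the keratin of differentiated colonocytes, had 706, 446, 630.3 and 714 CPM in HT55 and 0.0731, 0.252, 0.0764 and 0.182 CPM in RKO. FABP1, a fatty acid carrier of enterocytes, had 317, 188, 319 and 337 CPM in HT55, lowest in replicate 2, and 3 reads in all of RKO. LGALS4, a lectin of the brush border, had 537, 567, 627 and 622 CPM in HT55 and 0.0731, 0, 0.229 and 0.242 CPM in RKO. All 12 RKO values of these 3 genes were under 1 CPM. The brush border peptidase MEP1A averaged 158 ± 13.4 CPM and the protocadherin CDHR5 52.7 ± 5.14 CPM in HT55 (SD, n = 4), against 1 and 0 reads in RKO. SLC26A3, the chloride-bicarbonate exchanger of colonocytes, had 77.9, 471, 93.5 and 76.2 CPM in HT55. Replicate 2 was far above the other 3, which lay between 76.2 and 93.5 CPM, and RKO had 2 reads in all. The median log2 fold change of the 19 genes was 10.85, or 10.52 with genes at 0 in one line set to the floor, while that of all genes tested was 0.04.

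The stretches before the transcription starts of FABP1, LGALS4 and KRT20 are shown because these are the 3 absorptive genes with the largest log2 fold change that were called higher in both CCS1 lines and had an entry in the promoter table. Each is the 250 bases upstream of the start in RefSeq on GRCh38.p14, 5′ to 3′ on the strand of the gene, which is the minus strand for all 3. FABP1 spans chr2:88128063-88128312, LGALS4 chr19:38812946-38813195 and KRT20 chr17:40885243-40885492. Capitals mark matches on either strand to the letters of motifs of intestinal factors. For CDX2 the search used TTTATNG. For HNF4 it used AAAGTCC, and for the GATA factors it looked for GATAAG.
FABP1: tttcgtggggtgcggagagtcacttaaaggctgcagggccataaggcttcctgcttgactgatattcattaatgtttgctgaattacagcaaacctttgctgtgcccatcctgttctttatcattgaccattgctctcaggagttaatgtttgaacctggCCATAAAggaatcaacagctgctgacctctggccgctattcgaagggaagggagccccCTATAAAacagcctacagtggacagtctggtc
LGALS4: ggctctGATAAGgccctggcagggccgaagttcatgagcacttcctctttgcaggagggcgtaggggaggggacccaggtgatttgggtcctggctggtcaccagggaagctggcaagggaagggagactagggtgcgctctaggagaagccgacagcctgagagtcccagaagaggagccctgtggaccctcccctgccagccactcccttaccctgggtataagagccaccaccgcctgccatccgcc
KRT20: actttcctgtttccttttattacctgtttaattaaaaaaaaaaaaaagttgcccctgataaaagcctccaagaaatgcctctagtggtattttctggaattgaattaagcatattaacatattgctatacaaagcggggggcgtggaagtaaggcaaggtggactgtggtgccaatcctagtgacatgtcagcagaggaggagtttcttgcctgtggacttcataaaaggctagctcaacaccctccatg
FABP1 held the CDX2 letters on the opposite strand at 90 to 84 and at 32 to 26 bases before the start, the second over letters of a TATA box. LGALS4 held GATAAG at 244 to 239 bases, and KRT20 held none of the letters searched in this window. None of the 3 held AAAGTCC. Among 35114 promoters of the same length, 8.93% held the CDX2 letters, 3.20% the HNF4 letters and 5.65% the GATA letters. A match is a run of letters and was not tested for binding.

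Of 21 goblet and secretory genes matched, 11 lay below the count minimum, and the 10 tested were called higher in HT55 (all genes, 26.9%). In 9 of these 10, every library of HT55 but not of RKO reached 10 counts, so that the filter admitted them through HT55 and their direction is a description. TFF3, a trefoil peptide of mucus, had 164, 211, 220.2 and 208 CPM in HT55 and 3 reads in all of RKO. MUC13, a membrane mucin, averaged 872 and 0.428 CPM, and AGR2, a disulfide isomerase needed for mucin folding, 60.3 and 0.148 CPM in HT55 and RKO. MUC2, the gel-forming mucin of goblet cells, was low even in HT55 at 4.12, 2.35, 3.74 and 5.17 CPM and had no read in RKO. AGR3 averaged 10.2 CPM in HT55, also with no read in RKO. The list's median log2 fold change was 8.64, or 6.42 with genes at 0 set to the floor.

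The absorptive and goblet genes also separated the second pair of lines. In SW948 against SW48, 14 of 15 absorptive genes tested and 9 of 9 goblet genes were called higher in SW948 and 1 absorptive gene, the peptidase DPP4, lower, against 20.2% and 17.9% of all genes. The count minimum admits genes through either line in that pair too. KRT20 averaged 797 ± 44.7 CPM in SW948 and 0.315 ± 0.282 CPM in SW48 (SD, n = 4 each; log2 fold change 11.20 ± 0.28). LGALS4 averaged 941 and 0.418 CPM (log2 fold change 11.07 ± 0.28) and FABP1 319 and 0.123 CPM (log2 fold change 11.14 ± 0.28). KRT20, LGALS4 and FABP1 were near 0 in SW48 and were named partly for their call in this pair, so their p-values are not given. MUC13 averaged 762 and 4.64 CPM (log2 fold change 7.36 ± 0.17, adjusted p = 7.3e-12). MUC2 had 11.4 CPM in SW948 and no read in SW48, at least 229-fold higher, and its direction was fixed once it was tested. AGR2, at 60.3 CPM in HT55, was at 578 CPM in SW948 and 602 CPM in DLD1. KRT20 and FABP1 were lower in the CCS3 lines than in HT55 and SW948, at 33.9 and 2.94 CPM for KRT20 and 0.300 and 0.0588 CPM for FABP1 in DLD1 and HCT15.

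**Figure D2:**
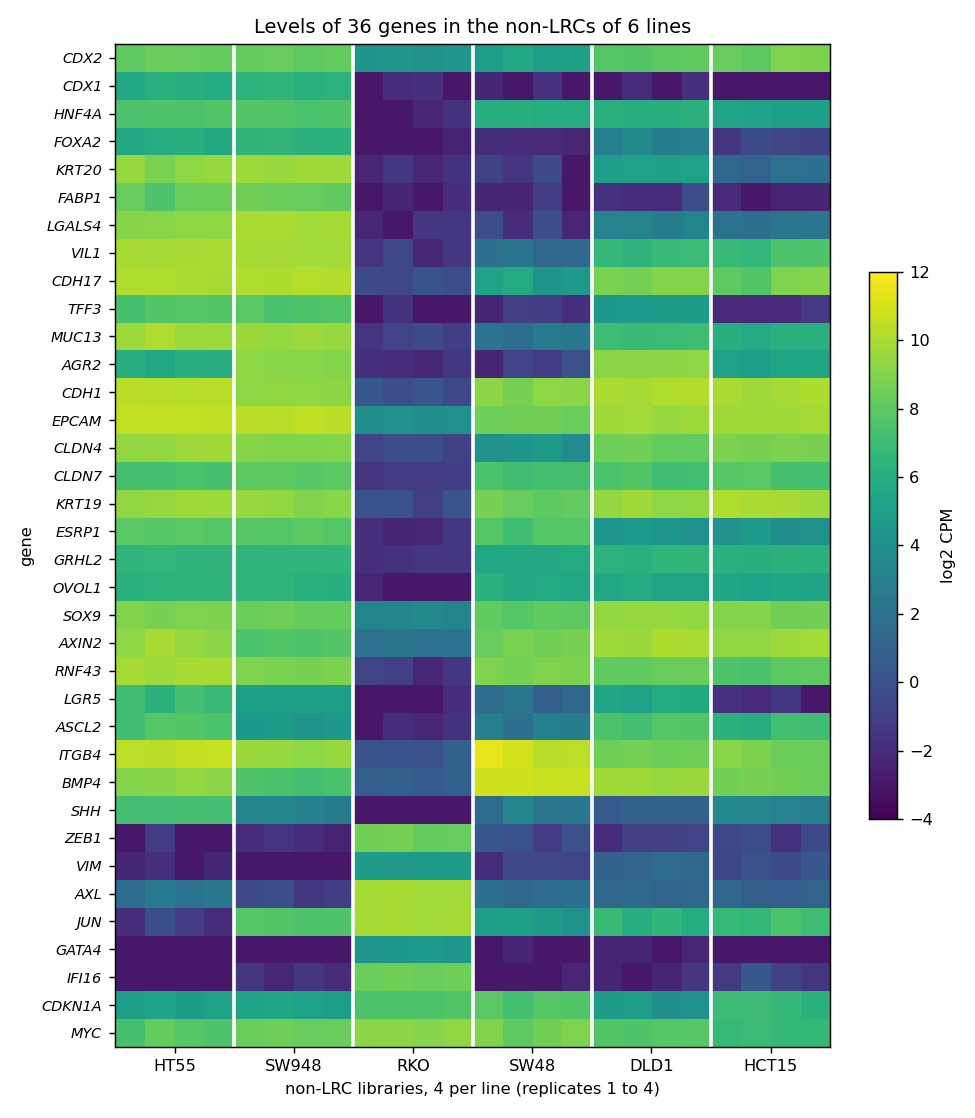
Log2 CPM (color scale, prior count of 2) of 36 genes in the 24 non-LRC libraries, 4 columns per line, with the lines in the order HT55, SW948, RKO, SW48, DLD1 and HCT15. KRT20, FABP1, LGALS4 and TFF3 are dark in both RKO and SW48, whereas CDH1, KRT19, OVOL1 and RNF43 are dark in RKO alone, and ZEB1, VIM, AXL, GATA4 and IFI16 are brighter in RKO than in any other line.

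Epithelial adhesion genes were lower in RKO by a wide margin. Of 32 tested, 29 were called higher in HT55, none was called lower and 3 were not called (all genes, 26.9% higher and 21.7% lower), with a median log2 fold change of 6.04. In 13 of the 32, every HT55 library but not every RKO library reached 10 counts. CDH1 (E-cadherin, the adhesion molecule of adherens junctions) had 1325, 1264, 1193 and 1238 CPM in HT55 and 1.17, 0.755, 1.07 and 0.606 CPM in RKO. EPCAM, which is used to purify epithelial cells, had 1492, 1489, 1506 and 1424 CPM in HT55 but was still measurable in RKO, at 15.6, 17.2, 14.4 and 15.9 CPM. The keratins KRT8 and KRT18 were likewise reduced but present in RKO, at 5968 and 73.0 CPM and 3759.6 and 119.8 CPM, and KRT19 averaged 747 and 0.793 CPM. RKO thus held all 5 epithelial markers, each above 0 in all 4 libraries, with only CDH1 and KRT19 at trace level. Claudins of the tight junction averaged 163 and 0.0691 CPM for CLDN1 and 751 and 0.614 CPM for CLDN4, and the membrane protease PRSS8 206 and 0.0977 CPM. Of 12 keratins tested, 11 were higher in HT55 and none lower, 8 of the 12 having reached 10 counts throughout HT55 but not RKO, KRT80 among them at 92.5 and 0.0340 CPM.

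Regulators that maintain the epithelial state were low in RKO as well, with 9 of 12 tested called higher in HT55 and 1 lower (all genes, 26.9% and 21.7%). In 6 of the 12 only HT55, and in 1 only RKO, reached 10 counts in every library, so the filter set the direction of these. ESRP1, which directs epithelial splicing, had 242, 221, 238 and 223 CPM in HT55 and 0.146, 0.0629, 0.0764 and 0.242 CPM in RKO. OVOL1, a repressor of mesenchymal genes, averaged 81.5 CPM in HT55 with 1 read in RKO. The exception was TFAP2A, with no read in HT55 and 9.94, 9.57, 9.32 and 9.09 CPM in RKO.

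CDH1, ESRP1 and OVOL1 averaged under 1 CPM in RKO and in none of the other 5 lines. SW48, the other CCS2 line, averaged 559.9 ± 94.4 CPM of CDH1 against 622 ± 25.1 CPM in SW948 (SD, n = 4 each; log2 fold change 0.15 ± 0.12, adjusted p = 0.24). ESRP1 was at 230.4 and 196 CPM (log2 fold change 0.23 ± 0.14, adjusted p = 0.16) and OVOL1 at 80.3 and 57 CPM (log2 fold change 0.50 ± 0.15, adjusted p = 0.0089) in SW948 and SW48. In the whole adhesion list, 13 of 32 genes were called higher in SW948 and none lower (all genes, 20.2% and 17.9%), with a median log2 fold change of 0.82. CLDN4 and EPCAM were among the 13, with 515 and 19.0 CPM (log2 fold change 4.76 ± 0.18, adjusted p = 2.8e-10) and 1327 and 357 CPM (log2 fold change 1.89 ± 0.08, adjusted p = 1.5e-09). Of the 29 genes higher in HT55 than in RKO, 26 (89.7%) were more than 1 log2 unit lower in RKO than in each of SW948, SW48, DLD1 and HCT15, and 1 (3.4%) was more than 1 unit higher in HT55 than in each of them. Among all genes called higher in HT55, these shares were 28.8% and 21.8%.

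**Figure D3:**
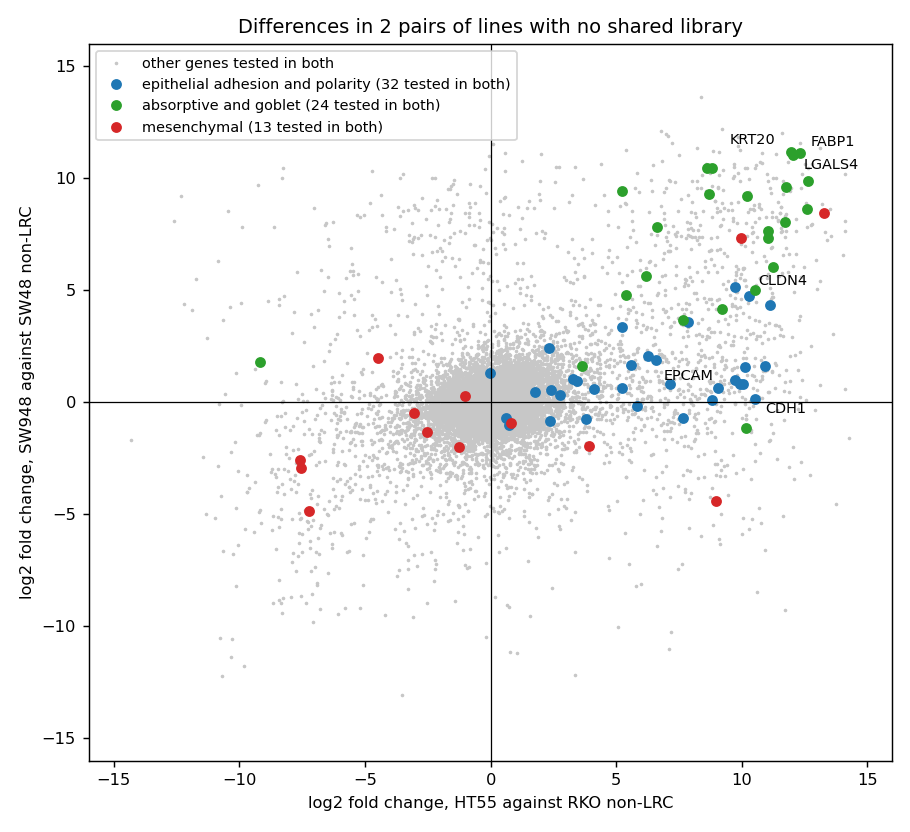
Log2 fold changes of genes tested in both pairs of lines, HT55 against RKO (x axis) and SW948 against SW48 (y axis), with the 3 gene lists in color. Absorptive and goblet genes (green) such as FABP1 and KRT20 lie far from 0 on both axes, while CDH1 and many adhesion genes (blue) lie far to the right but near 0 on the y axis.

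Of 21 mesenchymal genes tested, 12 were higher in RKO and 8 higher in HT55 (all genes, 21.7% and 26.9%). In 6 of the 21 only RKO, and in 7 only HT55, reached 10 counts in every library. ZEB1, a repressor of CDH1, had 378, 399.7, 300.3 and 316 CPM in RKO and 4 reads in all of HT55. VIM (vimentin, chosen after its values were seen) had 27.1, 24.4, 26.6 and 28.9 CPM in RKO and 0.0699, 0.147, 0 and 0.0709 CPM in HT55. None of the other 4 lines averaged above 0.816 CPM of ZEB1 or 2.31 CPM of VIM. On the HT55 side stood TGFBI, an extracellular matrix protein induced by TGF-beta, with 7486, 5521, 8047 and 7572 CPM in HT55 and 1.32, 0.566, 0.382 and 0.727 CPM in RKO. The collagen COL5A1 averaged 88.1 CPM in HT55 with 3 reads in RKO, and COL6A2 was at least 175-fold higher in HT55. COL5A1 and COL6A2 were under 0.1 CPM in the other 4 lines. TGFBI also differed in the second pair, at 847 and 2.35 CPM in SW948 and SW48 (log2 fold change 8.47 ± 0.17, adjusted p = 2.8e-12).

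Among caveolae and YAP-TEAD target genes, 9 of 23 tested were higher in RKO, 7 higher in HT55 and 7 not called, beside 21.7% higher in RKO and 26.9% higher in HT55 over all genes. EHD2, which stabilizes caveolae, averaged 27.7 CPM in RKO with 2 reads in HT55. The matricellular protein CCN1 had 575, 576, 529.6 and 562 CPM in RKO and 0.699, 2.35, 1.32 and 1.42 CPM in HT55, and the receptor tyrosine kinase AXL 929, 974, 864 and 868 CPM and 3.21, 5.72, 3.96 and 5.10 CPM. The GTPase-activating protein DLC1 averaged 5.34 and 129 CPM in HT55 and RKO. In the second pair 11 of 22 genes of the list were called lower in SW948 and 4 higher (all genes, 17.9% and 20.2%). CCN1 averaged 0.604 and 59.5 CPM (log2 fold change -6.57 ± 0.39), near 0 in SW948, so its p-value is not given. JUN, a component of the AP-1 factor (chosen after its values were seen), had 928, 939, 862 and 907 CPM in RKO and 0.140, 0.807, 0.294 and 0.142 CPM in HT55. The other 4 lines lay between 27.9 and 202 CPM, so HT55 was lower and RKO higher than each of them.

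**Figure D4:**
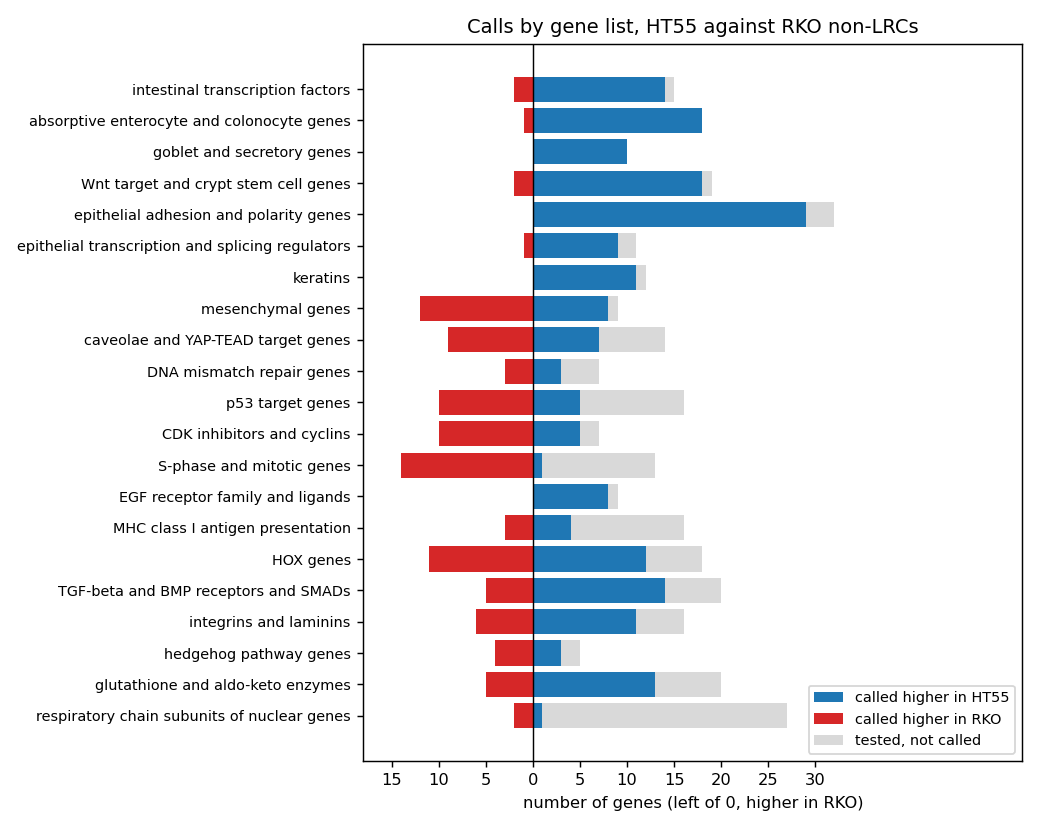
Number of tested genes of each of 21 lists called higher in HT55 (blue, right of 0), called higher in RKO (red, left of 0) or not called (gray). Adhesion (29 to 0), absorptive (18 to 1) and Wnt target genes (18 to 2) lie on the HT55 side, S-phase and mitotic genes (1 to 14) on the RKO side, and respiratory chain genes are mostly gray (26 of 29).

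Wnt target and crypt stem cell genes were higher in HT55 for 18 of 21 tested and lower for 2 (all genes, 26.9% and 21.7%). In 8 of the 21, every HT55 library but not every RKO library reached 10 counts. RNF43, a membrane ubiquitin ligase that dampens Wnt reception and is itself a Wnt target, had 939, 823, 978 and 968 CPM in HT55 and 0.512, 0.378, 0.0764 and 0.242 CPM in RKO. AXIN2, a feedback inhibitor of the pathway, had 634, 966, 695 and 605 CPM in HT55 and 3.95, 4.59, 3.82 and 4.18 CPM in RKO. LGR5, the receptor that marks crypt stem cells, had 133, 76.3, 149.9 and 108 CPM in HT55 and 2 reads in all of RKO. The stem cell transcription factor ASCL2 averaged 185 and 0.0960 CPM, and APCDD1, another Wnt inhibitor, 679 and 0.130 CPM. EPHB2 and PTK7, surface markers of stem and progenitor cells, differed less, with log2 fold changes of 1.43 ± 0.09 and 1.83 ± 0.13. LEF1, a partner of beta-catenin, and MYC went the other way. LEF1, outside the rule and named after its values were seen, averaged 1.28 and 49.4 CPM. MYC was present in both lines, with 163, 300.2, 224 and 186 CPM in HT55 and 603, 600.0, 536 and 657 CPM in RKO (log2 fold change -1.41 ± 0.16). HT55 thus held LGR5 and ASCL2 beside KRT20 and FABP1 in the same sorted population, and all 4 averaged under 1 CPM in RKO.

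In the second pair the list was divided. RNF43 averaged 449 ± 18.8 CPM in SW948 and 454 ± 34.9 CPM in SW48 (SD, n = 4 each; log2 fold change -0.01 ± 0.08, adjusted p = 0.87). AXIN2 averaged 198 and 385 CPM, just short of the 2-fold limit (log2 fold change -0.96 ± 0.11, adjusted p = 7.1e-06), and PTK7 was lower in SW948, at 131 and 267 CPM (log2 fold change -1.03 ± 0.09, adjusted p = 5e-07), a call lost without replicate 2 (log2 fold change -0.95). LGR5, ASCL2 and EPHB2 were higher in SW948, with log2 fold changes of 3.43 ± 0.22, 1.87 ± 0.20 and 1.34 ± 0.09 (adjusted p = 3.8e-08, 4e-06 and 4.3e-08). Over the list, 10 of 21 were called higher and 4 lower (all genes, 20.2% and 17.9%). For RNF43 and AXIN2, RKO lay below the other 5 lines, whose lowest means were 218 CPM in HCT15 and 198 CPM in SW948.

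In the DNA mismatch repair list, 3 of 10 genes were higher in HT55, 3 higher in RKO and 4 not called (all genes, 26.9% higher in HT55 and 21.7% in RKO). MSH3, which recognizes larger loops, was low in RKO alone, at 5.12, 6.42, 5.65 and 4.60 CPM against 39.3, 37.5, 35.6 and 31.5 CPM in HT55 and 38.6 CPM in SW48. The exonuclease EXO1 was higher in RKO, at 8.09 and 62.4 CPM in HT55 and RKO.

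Among EGF receptors and ligands, 8 of 9 tested were higher in HT55 and none lower (all genes, 26.9% and 21.7%). ERBB3, a receptor for neuregulins, averaged 1109 and 23.1 CPM, the ligands EREG 21.7 and 0.310 CPM and TGFA 102 and 2.76 CPM, and EGFR itself 205 and 70.1 CPM, in HT55 and RKO. In SW48, EGFR averaged 1334 CPM, the highest of the 6 lines, and it was lower in SW948 (log2 fold change -2.56 ± 0.10, adjusted p = 5.2e-10). In the TGF-beta and BMP list, 14 of 25 were higher in HT55 and 5 lower, against the same shares of all genes. BMP4, which promotes differentiation, had 526, 536, 688 and 590.4 CPM in HT55 and 1.68, 1.76, 1.45 and 1.76 CPM in RKO, and BMP7 averaged 356 and 0.655 CPM. The inhibitory SMAD6 averaged 24.8 and 0.114 CPM, while SMAD9, a mediator of BMP signals, averaged 0.0902 and 25.2 CPM and was higher in RKO. BMP4 was again opposite in the second pair, at 169.9 and 1724 CPM (log2 fold change -3.34 ± 0.11, adjusted p = 9.1e-11), and SMAD6 did not differ there beyond the limit (7.30 and 7.73 CPM, log2 fold change -0.08 ± 0.14, adjusted p = 0.62).

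Of 9 hedgehog genes tested, 3 were higher in HT55 and 4 higher in RKO (all genes, 26.9% and 21.7%). In 2 of the 9 only HT55, and in 3 only RKO, reached 10 counts in every library. SHH, a ligand, had 147, 150.2, 155 and 148 CPM in HT55 and no read in RKO, and no other line averaged above 9.29 CPM. IHH, the ligand of differentiated colonocytes, averaged 87.6 CPM in HT55 with 2 reads in RKO, and 116 and 0.113 CPM in SW948 and SW48 (log2 fold change 9.86 ± 0.24). It was near 0 in SW48, so its direction in that pair was fixed once it was tested. The receptor PTCH1 had 271, 271, 254 and 262 CPM in HT55 and 56.6, 60.9, 43.0 and 51.8 CPM in RKO. GLI1, a transcription factor at the end of the pathway, had no read in HT55 and 2.27, 3.02, 1.99 and 2.48 CPM in RKO. KIF7 and SUFU, which control GLI proteins, averaged 0.773 and 31.0 CPM and 14.7 and 31.7 CPM. Of the genes named, the ligands and the receptor were higher in HT55 and the intracellular members in RKO. GLI1 was low even in RKO, and the call of SUFU was lost under some settings.

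Of 22 integrins and laminins tested, 11 were higher in HT55 and 6 higher in RKO (all genes, 26.9% and 21.7%). In 6 of the 22 only HT55, and in 2 only RKO, reached 10 counts in every library. LAMA3, a laminin chain of epithelial basement membranes, averaged 245 CPM in HT55 with 3 reads in RKO. ITGB6, an epithelial integrin, had 235, 185, 217 and 202 CPM in HT55 and 2 reads in RKO, and LAMA4 was at least 879-fold higher in HT55. In SW948 against SW48, ITGB6 was again higher in the CCS1 line (54 and 11.3 CPM, log2 fold change 2.26 ± 0.15, adjusted p = 4.9e-08), whereas LAMA3 was lower, at 66.4 and 265 CPM (adjusted p = 3.8e-08).

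Of 27 S-phase and mitotic genes tested, 14 were higher in RKO, 1, TOP2A, was higher in HT55 and 12 were not called (all genes, 21.7% higher in RKO and 26.9% in HT55). The median log2 fold change was -1.21. With library size as the only scaling, 17 were higher in RKO and none in HT55. The helicase subunit MCM4 had 51.4, 62.8, 53.9 and 56.8 CPM in HT55 and 413, 402, 401 and 389 CPM in RKO. TYMS, PCNA and the licensing factor CDT1 averaged 16 and 111 CPM, 43.9 and 225 CPM and 16.2 and 84.7 CPM in HT55 and RKO. In the second pair 8 of 27 were called higher in SW948 and 1 lower (all genes, 20.2% and 17.9%), with MCM4 at 206 and 219.9 CPM (log2 fold change -0.09 ± 0.13, adjusted p = 0.53).

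CDK inhibitors and cyclins were higher in RKO for 10 of 17 and in HT55 for 5 (all genes, 21.7% and 26.9%). The inhibitors CDKN2B and CDKN1A averaged 3.37 and 57 CPM and 33.0 and 187 CPM, and the cyclins CCNE1 and CCNE2 6.92 and 42.9 CPM and 3.96 and 31.9 CPM, all higher in RKO. CDKN1C and CDKN2D were higher in HT55, at 17.5 and 6.01 CPM and 10.3 and 2.59 CPM, with log2 fold changes of 1.59 ± 0.18 and 2.02 ± 0.17. In SW948 and SW48 these 2 were at 5.10 and 8.77 CPM and 3.11 and 3.36 CPM and were not called. Of 26 p53 target genes, 10 were higher in RKO, 5 in HT55 and 11 were not called, beside the same shares of all genes. CDKN1A had 183, 182, 182 and 199.9 CPM in RKO and 31.0, 38.1, 27.0 and 36.1 CPM in HT55 (log2 fold change -2.45 ± 0.11), and it was higher in SW48 as well (36.9 and 201 CPM, log2 fold change -2.45 ± 0.14, adjusted p = 1.4e-08). PHLDA3 averaged 1.10 and 23 CPM, and MDM2, the p53 ubiquitin ligase (chosen after its values were seen), 59.4 and 164 CPM. Against this direction, the stress cytokine GDF15 had 609, 319, 668 and 787 CPM in HT55 and 1.17, 0.692, 1.15 and 0.909 CPM in RKO, and PLK2 and BTG2 averaged 15.6 and 0.140 CPM and 207 and 24.9 CPM.

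HOX genes, which record position along the body axis, were found on both sides. Of 29 tested, 12 were higher in HT55 and 11 in RKO (all genes, 26.9% and 21.7%). In 8 of the 29 only RKO, and in 1 only HT55, reached 10 counts in every library. The 7 tested genes of the HOXC cluster were all higher in RKO, with HOXC8 at 0, 0.367, 0.147 and 0.142 CPM in HT55 and 17.5, 19.0, 15.8 and 17.3 CPM in RKO and HOXC5 averaging 0.163 and 5.77 CPM. HOXC10 averaged 5.05 CPM in RKO with 2 reads in HT55, and HOXD3 averaged 0.0716 and 6.04 CPM in HT55 and RKO. HOXC8, HOXC5, HOXC10 and HOXD3 thus passed the count minimum through RKO, and their direction is a description. SW48 also expressed HOXC10 and HOXD3, at 0.0308 and 23.8 CPM and 0.215 and 4.17 CPM (log2 fold change of HOXD3 -4.18 ± 0.44) in SW948 and SW48. Both genes were near 0 in SW948, so their direction in this pair was fixed once they were tested. In this pair 12 of 24 HOX genes were called lower in SW948 and 2 higher (all genes, 17.9% and 20.2%).

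Among glutathione and aldo-keto enzymes, 13 of 25 tested were higher in HT55 and 5 higher in RKO (all genes, 26.9% and 21.7%). In 7 of the 25 only HT55, and in 3 only RKO, reached 10 counts in every library. With library size as the only scaling the counts were 11 and 8. GPX2, the glutathione peroxidase of the gut, had 779, 769, 995 and 884 CPM in HT55 and 0, 0.189, 0.0764 and 0 CPM in RKO, and 571 and 1.40 CPM in SW948 and SW48 (log2 fold change 8.65 ± 0.20, adjusted p = 6.3e-12). AKR1C3 averaged 172 CPM in HT55 with 2 reads in RKO, although counts within the AKR1C family are uncertain because its members share near-identical sequence. ALDH1A1 had 95.3, 295, 105 and 101 CPM in HT55 with replicate 2 far above the rest, and 0.0731, 0, 0.229 and 0.121 CPM in RKO. GPX8 was higher in RKO, at 0.0911 and 85.2 CPM.

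Of 19 genes of MHC class I presentation, 4 were higher in HT55, 3 higher in RKO and 12 were not called, beside 26.9% and 21.7% of all genes. B2M, the light chain of class I molecules, had 1658, 1640.4, 1857 and 1557 CPM in HT55 and 487, 493, 598 and 560.0 CPM in RKO. The regulator NLRC5 averaged 40.7 and 17.0 CPM, the peptide transporter subunit TAP2 12.5 and 38.8 CPM and the proteasome subunit PSMB9 3.04 and 14.5 CPM. Of 29 nuclear genes of the respiratory chain, 3 were called and 26 were not, where 48.6% of all genes were called. NDUFV2 and UQCRB were higher in RKO, at 57.3 and 184 CPM and 139 and 289 CPM, and COX5B in HT55, at 164 and 75.2 CPM. The calls of UQCRB and COX5B lay at the 2-fold limit, with log2 fold changes of -1.01 ± 0.10 and 1.18 ± 0.12, and were lost under some settings.

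Over all genes, 1290 of the 3719 called higher in HT55 (34.7%) were also called higher in SW948 than in SW48. Among all genes tested in that pair, 20.2% were called higher in SW948. The 1290 genes are also 45.5% of the 2836 higher in SW948, beside 26.9% of all genes called higher in HT55. A further 473 of the 3719 (12.7%) were called in the opposite direction (all genes, 17.9%), 1537 were tested and not called, and 419 did not reach the count minimum. Of the 3008 called higher in RKO, 827 (27.5%) were also higher in SW48 (all genes, 17.9%), and 341 (11.3%) were opposite (all genes, 20.2%). The 827 genes are 32.8% of the 2522 higher in SW48, beside 21.7% of all genes called higher in RKO. The genes with the largest change in both pairs were LRRC31, DNAJC15, TMEM176A, KRT20 and FABP1 on the CCS1 side. LRRC31 averaged 26.2 CPM in HT55 and 33.9 CPM in SW948, with no read in RKO or SW48, and the mitochondrial co-chaperone DNAJC15 129 and 178 CPM. On the CCS2 side were ZNF556, NKX2-5, IRX2, UNC5A and FGD1. NKX2-5 and IRX2, transcription factors best known from heart and limb or neural development, averaged 11.3 and 11.1 CPM in RKO and 21.4 and 12.2 CPM in SW48, with no read in HT55 or SW948.

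Opposite calls with the largest changes were those of EPHA4, C6orf15, KSR2, ZBED2 and PRF1, higher in HT55 and in SW48, and of SCAND3, B3GALNT1, LXN, DCDC2 and CIBAR1, higher in RKO and in SW948. The ephrin receptor EPHA4 had 94.0, 42.9, 109.6 and 87.4 CPM in HT55 and 1 read in RKO, but 0.0358 CPM in SW948 and 24.8 CPM in SW48. DCDC2 averaged 0.0890 and 32.2 CPM in HT55 and RKO and 25.7 and 0.0149 CPM in SW948 and SW48.

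LRCs sorted from the same cultures were compared between the lines as well. In HT55 LRCs against RKO LRCs, 3171 of the 3719 genes (85.3%) were again called higher in HT55 and 2 lower, and 2618 of the 3008 (87.0%) were again called higher in RKO and none in HT55, where the background was 25.2% and 22.5% of 14137 genes. Of the 14 S-phase and mitotic genes higher in RKO, 6 were called so again in LRCs, a smaller share than the 87.0% of all such genes. CDH1 averaged 1262 CPM in HT55 LRCs and 1.04 CPM in RKO LRCs, and KRT20 525 and 0.127 CPM. The LRC and non-LRC libraries came from the same lines and cultures, so this is a repeat measurement and not an independent one.

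By position, protein-coding genes of some chromosomes were shifted as a group. The median log2 fold change was 0.87 on chromosome 13, where 91 of 203 genes were higher in HT55 and 14 in RKO. On chromosome 8 it was -0.81, with 57 of 409 genes higher in HT55 and 179 in RKO. Over all genes tested, 26.9% were higher in HT55 and 21.7% in RKO. Chromosomes 22 and 4 had medians of -0.64 and -0.55, and chromosome 2 one of 0.44. In LRCs the medians were 0.85 on chromosome 13 and -0.89 on chromosome 8. Copy number was not measured here.

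**Figure D5:**
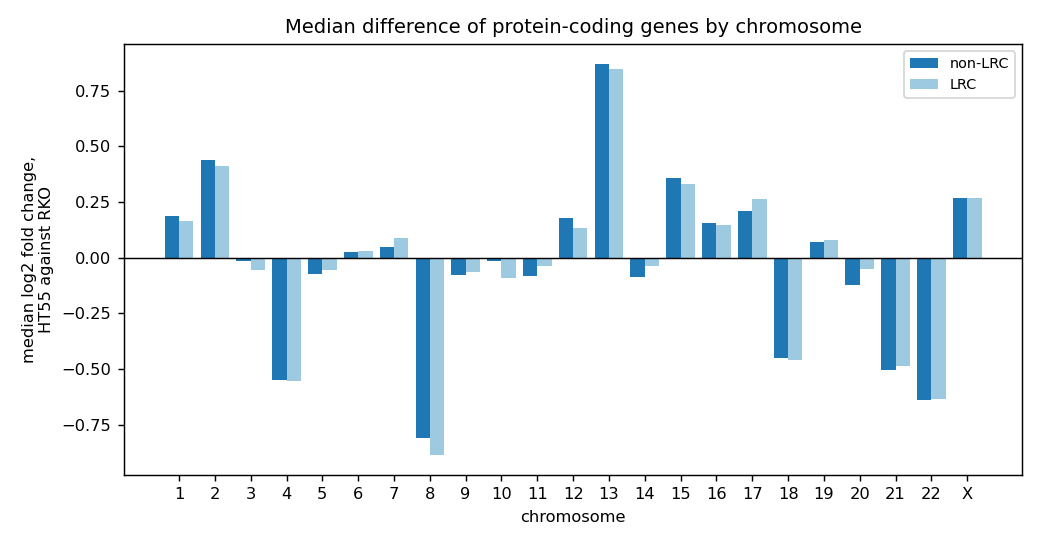
Median log2 fold change of HT55 against RKO over the protein-coding genes tested on each chromosome, in non-LRCs (dark bars) and LRCs (light bars). Chromosome 13 is the highest at 0.87 in non-LRCs and chromosome 8 the lowest at -0.81.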

How the data were processed

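RNA was sequenced as 50-base single-end reads. Per the labels, the authors deposited raw read counts per gene for each sample, and the submitters' processing notes name TopHat, HTSeq and DESeq, with hg19 as the genome build and no versions. Rows that name no gene were left out of library sizes. Counts were fitted with edgeR 4.0.16 (TMM, quasi-likelihood test, Benjamini-Hochberg adjustment, R 4.3.3) on the 8 libraries of each comparison, after removing genes that reached 10 counts in fewer than 4 libraries. A call required an adjusted p under 0.05 and a log2 fold change of at least 1. Genes without a read in any library of a line were set to 3 counts over that line to give a lower bound on the fold. Scripts were tested on simulated data.

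Members and gene lists were chosen with earlier results of these data known. Named genes were the 10 highest and 10 lowest called protein-coding genes with at least 20 CPM in the higher line, all tested intestinal transcription factors, up to 4 called members of every other list with at least 5 CPM and any member named by the study, and the 5 with the largest change in each direction called alike, and the 5 called oppositely, in both pairs of lines. VIM, JUN, MDM2, CA2, DPP4, LEF1 and TOP2A were added after their values were seen, as was the comparison of HT55 and RKO with the range of the other 4 lines. Alternatives were DESeq2 1.42.0, other scalings, filters and thresholds, a fit of 6 lines, a replicate block and leaving out each replicate. Replicate pairs differed beyond sampling noise (mean chi-square per gene 3.12 to 52.4). Lower bounds from the floor of 3 counts allow for counting error only. The SE of a log2 fold change comes from the quasi-likelihood test and includes the spread between replicates. Strand was not given in the sources used here, so overlapping and antisense genes cannot be separated. Some named items are not reported here.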

Additional observations from a re-analysis of the deposited data

Results flagged for a closer look

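Of 186 groups of 4 values examined, 13 held a value whose gap to the nearest other exceeded Dixon's critical value, where chance gives about 1 in 20 groups. In HT55, replicate 2 was the value set apart for GATA6 (53.7 CPM, others 33.0 to 34.7), SLC26A3 (471 CPM, others 76.2 to 93.5), MUC13 (1070 CPM, others 794 to 820), ALDH1A1 (295 CPM, others 95.3 to 105) and CD68 (27.5 CPM, others 14.7 to 16.4), and on the low side for FABP1 (188 CPM, others 317 to 337). OVOL1 was lowest in HT55 replicate 1, at 70.9 CPM against 83.8 to 86.2. In RKO the single values were 9.63 CPM for VDR, 200 CPM for CDKN1A, 25.3 CPM for ERBB3, 34.7 CPM for KIF7 and 77.8 CPM for FGD1 on the high side, and 9.36 CPM for NKX2-5 on the low side.

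For 23 named genes, the difference between SW948 and SW48 ran against that between HT55 and RKO in every sample. The difference between the 2 pairs was not tested. The count of 23 partly follows from how genes were named. The 5 largest opposite calls in each direction were named for being opposite, and JUN after its values were seen. Higher in HT55 and in SW48 were TRIM29 (mean of 29.0 CPM in SW48), MME (7.61), KLF4 (169), PTK7 (267), PLK2 (168), EREG (433), EGFR (1330), NLRC5 (20.8), BMP4 (1720), LAMA4 (13.0), LAMA3 (265), EPHA4 (24.8), C6orf15 (19.5), KSR2 (32), ZBED2 (5.91) and PRF1 (9.99), all as CPM. Higher in RKO and in SW948 were CIBAR1 (mean of 20.5 CPM in SW948), B3GALNT1 (4.82), DLC1 (1.30), SCAND3 (6.82), LXN (15.6), DCDC2 (25.7) and JUN (202), all as CPM.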

How the results depend on the processing

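Requiring 10 counts in every sample left 2097 genes higher in HT55 and 1964 higher in RKO, 1595 and 1656 for SW948 against SW48, and 2014 and 2031 in LRCs. That minimum removes genes that are off in one line. With no minimum fold change the counts were 5886 and 5441, 5577 and 5313, and 5939 and 5630, and the genes shared by both pairs numbered 2740 and 2377. The correlation of HT55 with RKO was 0.687 with a prior count of 0.5 and 0.746 as Spearman's rank correlation, the lowest of the 15 pairs on each measure. With library size as the only scaling, 3257 genes were higher in HT55 and 3615 higher in RKO, so the larger group changed sides. The median of all genes moved by -0.22 log2 units, and the cause was not tested. Leaving out 1 replicate number at a time gave 3680 to 3745 and 2980 to 3082 genes for HT55 against RKO, 2802 to 2973 and 2493 to 2560 for SW948 against SW48, 3527 to 3588 and 3154 to 3245 in LRCs, and 1277 to 1306 and 814 to 837 shared by both pairs. Same-numbered libraries did not deviate together in every pair (correlations of -0.074 to 0.159 in HT55 and RKO), so the numbers were not taken to pair the samples. In SW948 and SW48 the correlations were all positive, at 0.026 to 0.214, against -0.124 to 0.080 for libraries of unlike number. The fits with a replicate block, given next, allow for such a pairing. A replicate block gave 3712 and 3015, 2859 and 2508, 3569 and 3196, and 1297 and 823 genes. DESeq2 called 3776 and 2930 genes. Of 1653 values of 146 named genes for HT55 against RKO, 1645 kept direction and call and 8 (SUFU, COX5B and UQCRB) lost the call. Of 1500 values of 129 genes for SW948 against SW48, 1479 kept both, 11 lost the call and 10 gained it, and none changed direction in either comparison.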
